A study of Mus musculus with 4 samples.

Results

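The AP1 transcription factor genes of the Fos and Jun families were described in bone marrow stem and progenitor cells with and without *Bptf*, the gene of the largest subunit of the NURF chromatin remodelling complex. The members were taken by gene symbol, and all 7 of them (*Fos*, *Fosb*, *Fosl1*, *Fosl2*, *Jun*, *Junb* and *Jund*) were present among the 18598 listed genes. All 7 also averaged at least 10 normalized counts, the minimum for testing, which 14858 genes reached. The cells were LSK cells, which lack lineage markers and carry SCA-1 and c-KIT, sorted from the bone marrow of C57BL/6 mice of about 3 months. *Bptf* cKO mice carried Bptf f/f alleles and Mx1-cre, and control mice carried Bptf f/f alleles. Both received pIpC, a double-stranded RNA that raises an interferon response and through it switches on the Mx1 promoter. Whether that response was equal in the genotypes was not tested. The Mx1 promoter answers in many cell types and is not particular to blood cells, and mice with cre but without floxed alleles were not analysed here. There were 2 RNA-seq libraries per genotype, each made from the pooled LSK cells of 5 mice sorted 10 days after cre induction, so the spread between libraries is a spread between pools.

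FOS and JUN proteins carry a basic region that contacts DNA and a leucine zipper through which they pair. JUN proteins pair with each other or with a FOS protein, whereas FOS proteins need a JUN partner, and the dimers bind AP1 sites in promoters and enhancers. *Fos*, *Fosb*, *Jun* and *Junb* are immediate-early genes, transcribed within minutes of a growth factor or stress signal from transcription factors already in the cell, and their mRNAs are short-lived. They are also known to respond to tissue dissociation and cell sorting, so a sorted population carries a level that includes handling.

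The normalized count is the number of reads on a gene divided by a size factor for the library, and the libraries held between 14091054 and 30134742 reads on listed genes. *Bptf* was at 5520 and 5850 normalized counts in the Bptf f/f libraries and at 3398 and 3320 in the *Bptf* cKO libraries. The study reports that the deletion removes an exon and leaves an unstable transcript that is out of frame. A count over the whole gene therefore does not measure how much working *Bptf* was left. All 10 LSK markers were listed, with a summed level of 54881 to 61622 in Bptf f/f and 44999 to 47058 in *Bptf* cKO. The replicate 2 libraries of both genotypes stood apart from the replicate 1 libraries. *Xist* was at 15675 and 11843 in replicate 2 against 0.775 and 3.25 in replicate 1, and *Pou5f1*, a gene of pluripotent cells, was at 582 and 738 in replicate 2 and had no read in replicate 1. Each AP1 gene is therefore given for each replicate pair. None of 5 T cell markers was listed, and *Lepr* was the absent marker among 5 of stroma. The summed levels of the other lists in Bptf f/f and in *Bptf* cKO were 1559 to 5461 and 1916 to 3096 for 5 of 5 B cell markers, 3299 to 37314 and 5624 to 11920 for 5 of 5 granulocyte markers, 620 to 1160 and 529 to 966 for 5 of 5 macrophage markers, 318 to 693 and 79.3 to 224 for 5 of 5 erythroid markers, 2962 to 5339 and 3650 to 4251 for 5 of 5 megakaryocyte markers, 672 to 2036 and 842 to 1613 for 4 of 5 stromal markers, and 72.1 to 730 and 29.2 to 952 for 5 of 5 pluripotency markers. The LSK and erythroid sums did not overlap between genotypes. The part of any of these cells in the AP1 levels was not tested. In such bulk libraries, fewer cells that express a gene and less RNA of it per cell cannot be told apart.

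The promoters of *Fos*, *Fosb* and *Jun* are shown because these members had the widest differences between genotypes. RefSeq, on GRCm38.p6, held a promoter entry for 6 of the 7 members, the exception being *Fosl1*. The 250 bases before the RefSeq start are written 5′ to 3′ on the strand of the gene, from chr12:85473640-85473889 (plus strand) for *Fos*, chr7:19310046-19310295 (minus strand) for *Fosb* and chr4:95052223-95052472 (minus strand) for *Jun*. Capitals mark matches to the motifs searched.
Fos: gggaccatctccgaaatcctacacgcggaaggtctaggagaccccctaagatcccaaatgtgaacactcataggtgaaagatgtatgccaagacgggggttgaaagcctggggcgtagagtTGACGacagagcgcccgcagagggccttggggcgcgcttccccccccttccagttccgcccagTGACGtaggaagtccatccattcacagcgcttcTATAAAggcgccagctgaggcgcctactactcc
Fosb: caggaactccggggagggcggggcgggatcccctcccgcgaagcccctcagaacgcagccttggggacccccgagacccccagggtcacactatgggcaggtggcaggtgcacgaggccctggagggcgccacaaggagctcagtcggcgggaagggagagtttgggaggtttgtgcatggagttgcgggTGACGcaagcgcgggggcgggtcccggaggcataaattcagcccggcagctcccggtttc
Jun: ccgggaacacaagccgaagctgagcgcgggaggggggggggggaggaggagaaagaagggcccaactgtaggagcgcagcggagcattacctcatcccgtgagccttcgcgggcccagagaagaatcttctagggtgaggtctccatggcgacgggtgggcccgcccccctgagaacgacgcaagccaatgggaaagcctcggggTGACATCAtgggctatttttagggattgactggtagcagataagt
The *Fos* window held TGACG, the core of the cAMP response element to which CREB and ATF proteins bind, beginning 129 and 66 bases before the start, and a TATA box (TATAAA) beginning 33 bases before it. In *Fosb*, TGACG began 60 bases before the start. In *Jun*, TGACATCA, a variant of the AP1 site that JUN and ATF2 dimers are known to bind, began 45 bases before the start. *Junb* held TGACG 106 bases before its start and a TATAAA match that begins at the start base itself. The full element TGACGTCA, which contains TGACG, the canonical AP1 motif (TGANTCA) and the CArG box bound by SRF were searched too and had no match in any of the 6 windows. Sequence more than 250 bases before the start was not searched, so a missing match does not mean that a gene lacks the site. The windows of *Fosl2* and *Jund* belong to RefSeq starts that lie 671 and 1210 bases from the start in the gene annotation used for position and length. Over both strands of 27025 promoter windows from 250 bases before to 50 bases after the start, 21.0% held TGACG, 14.2% TATAAA, 3.76% TGACATCA, 7.93% TGANTCA, 1.88% TGACGTCA and 1.57% a CArG box. TGACG is thus a common match, and TGACATCA a rarer one.

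Of the Fos family, *Fos* and *Fosb* lay below both controls in both *Bptf* cKO libraries, *Fosl2* was higher, and *Fosl1* overlapped between genotypes. *Fos*, the prototype of the family, lies on chromosome 12 at 85473890 to 85477273 in GRCm38 and has 4 exons. It was at 16269 and 37418 normalized counts in Bptf f/f replicates 1 and 2 and at 4335 and 4312 in *Bptf* cKO replicates 1 and 2. The *Bptf* cKO values were nearly equal, while the controls differed 2.30-fold, and the lowest control stood 3.75-fold above the highest *Bptf* cKO library. The mean was 26844 ± 14955 in Bptf f/f and 4323 ± 16.4 in *Bptf* cKO (SD, n = 2). Within replicate pairs *Fos* was 3.75-fold and 8.68-fold lower in *Bptf* cKO, log2 differences of -1.91 and -3.12. The limma fit over all tested genes put the log2 fold change at -2.51 (SE 0.38) with an adjusted p of 0.0673, which did not pass 0.05. The call depended on which library was left out. The log2 fold change was -3.11 without Bptf f/f replicate 1 and -1.91 without Bptf f/f replicate 2. It was -2.52 without *Bptf* cKO replicate 1 and -2.51 without *Bptf* cKO replicate 2. In each of these fits the gene's own spread came from the genotype with 2 libraries alone. The lone library of the other genotype was assumed to vary like them, so these fits do not decide a call.

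*Fosb*, whose short splice product deltaFOSB lacks the transactivating end of the protein, lies on chromosome 7 at 19302696 to 19310051 and has 4 exons. Splice products were not separated in gene counts. *Fosb* was at 15403 and 50007 normalized counts in Bptf f/f and at 2364 and 5439 in *Bptf* cKO. In both genotypes the replicate 2 library was the higher, by 3.25-fold and 2.30-fold, and the lowest control stood 2.83-fold above the highest *Bptf* cKO library. The mean was 32705 ± 24468 in Bptf f/f and 3902 ± 2174 in *Bptf* cKO (SD, n = 2). By pair it was 6.51-fold and 9.19-fold lower, the widest pair differences of the 7 genes. The log2 fold change was -2.95 (SE 0.65), with a limma adjusted p of 0.132.

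*Fosl2* encodes FRA-2, a FOS protein without the transactivation domain of FOS, and lies on chromosome 5 at 32135801 to 32157842 with 4 exons. It was at 994 and 661 normalized counts in Bptf f/f and at 1269 and 1541 in *Bptf* cKO. It was the only member with both *Bptf* cKO values above both controls, by 1.28-fold between the nearest libraries. The pair differences were 0.35 and 1.22 on the log2 scale, and the means were 828 ± 236 and 1405 ± 192 (SD, n = 2). The log2 fold change was 0.79 (SE 0.23), with a limma adjusted p of 0.206. *Fosl1*, which encodes the related FRA-1, lies on chromosome 19 at 5447547 to 5455946 and was read rarely, with 48 to 99 reads per library. It was at 37.2 and 90.1 normalized counts in Bptf f/f and at 64.3 and 79.0 in *Bptf* cKO, so both *Bptf* cKO values lay between the controls. Counting error alone gave 95% Poisson intervals of 27.4 to 49.3 and 69.5 to 114.8 for the 2 controls. The pairs differed in sign, at 0.77 and -0.19 on the log2 scale, and the log2 fold change was 0.29 (SE 0.48) with a limma adjusted p of 0.836. Of the 2033 exon bases of *Fosl1*, 1163 are shared with *Ccdc85b* on the opposite strand, a gene at 169 to 259 normalized counts, and whether counting used the strand is not given in the sources used here, so reads of these genes may not be separated.

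**Figure D1:**
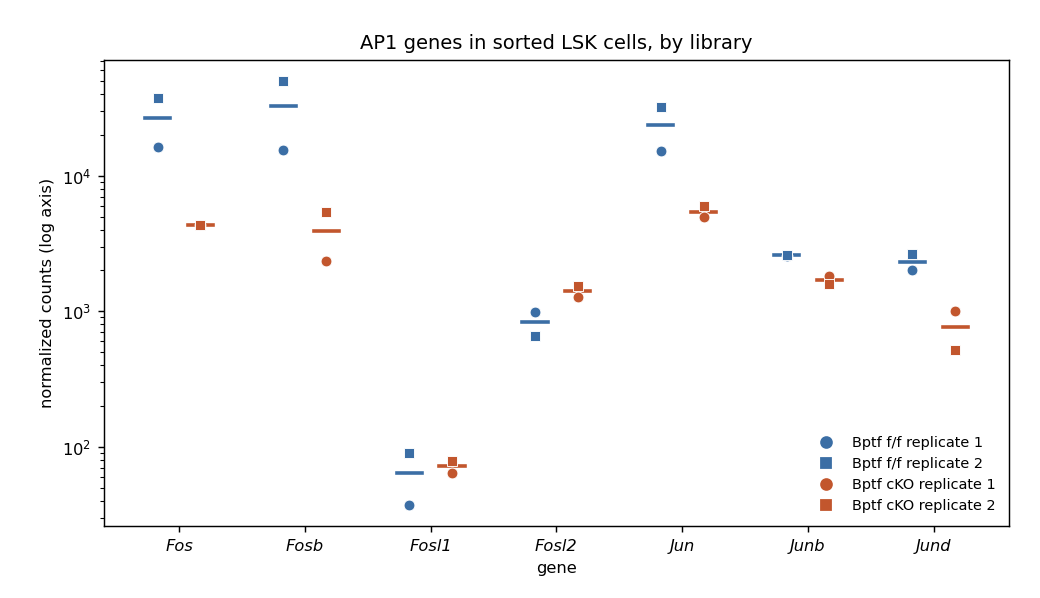
The plot gives normalized counts on a log axis for each AP1 gene, with Bptf f/f libraries in blue, *Bptf* cKO libraries in orange, circles for replicate 1, squares for replicate 2 and bars for the mean of 2 libraries. Orange points lie below blue points for *Fos*, *Fosb*, *Jun*, *Junb* and *Jund*, above them for *Fosl2*, and between them for *Fosl1*.

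All 3 Jun family genes had both *Bptf* cKO values below both controls. *Jun*, the partner that dimerizes with every FOS protein, is a gene of 1 exon on chromosome 4 at 95049034 to 95052222. It was at 15177 and 32102 normalized counts in Bptf f/f and at 4949 and 5939 in *Bptf* cKO. As for *Fos*, the controls were further apart (2.12-fold) than the *Bptf* cKO libraries, and the lowest control stood 2.56-fold above the highest *Bptf* cKO library. The mean was 23639 ± 11968 in Bptf f/f and 5444 ± 699.7 in *Bptf* cKO (SD, n = 2). The pairs gave 3.07-fold and 5.41-fold lower values, or -1.62 and -2.43 on the log2 scale. The log2 fold change was -2.03 (SE 0.35), with a limma adjusted p of 0.0864. The log2 fold change was -2.57 without Bptf f/f replicate 1 and -1.48 without Bptf f/f replicate 2. It was -1.89 without *Bptf* cKO replicate 1 and -2.16 without *Bptf* cKO replicate 2. As for *Fos*, each of these fits leaves a lone library in 1 genotype and does not decide a call. On the opposite strand *Junos* shares 232 exon bases with *Jun*, but it held 6.93 to 18.6 normalized counts, far below *Jun*.

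*Junb*, which often restrains JUN activity, has 1 exon on chromosome 8 at 84974484 to 84978718. It was at 2561 and 2615 normalized counts in Bptf f/f and at 1822 and 1586 in *Bptf* cKO. On the log2 scale its controls lay closest together of the 7 genes, with means of 2588 ± 38.4 and 1704 ± 167 (SD, n = 2), and the smallest difference between genotypes of the 5 lower members. The values in *Bptf* cKO were 1.41-fold and 1.65-fold lower by pair, or -0.49 and -0.72 on the log2 scale. The log2 fold change was -0.61 (SE 0.11), with a limma adjusted p of 0.0932. *Junb* shares 173 exon bases with *Prdx2* on the opposite strand, which was at 3005 to 3703 normalized counts.

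*Jund*, the member held at a steadier level than the immediate-early genes in most tissues, has 1 exon on chromosome 8 at 70698949 to 70700616. It was at 2004 and 2629 normalized counts in Bptf f/f and at 1003 and 518 in *Bptf* cKO. Its lower *Bptf* cKO value was in replicate 2, as for *Junb* and, by a narrow margin, *Fos*, whereas *Fosb* and *Jun* had theirs in replicate 1. The mean was 2316 ± 442 in Bptf f/f and 761 ± 343 in *Bptf* cKO (SD, n = 2), and the nearest libraries of the genotypes were 2.00-fold apart. By pair it was 2.00-fold and 5.08-fold lower, or -0.997 and -2.34 on the log2 scale. The log2 fold change was -1.67 (SE 0.33), with a limma adjusted p of 0.111. An annotated gene on the opposite strand, *Gm11175*, covers 877 of the 1668 exon bases of *Jund* and was not listed.

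Across the 7 genes, limma fitted by genotype alone, without the replicate number, called 0 lower and 0 higher at an adjusted p under 0.05. Of all tested genes it called 0.37% lower and 0.37% higher. At an unadjusted p under 0.05 it passed 6 of 7, against 15.7% of all tested genes. DESeq2 on the recovered reads called 5 lower, against 3.57% of the genes it gave an adjusted p, and 1 higher, against 2.28%. Its adjusted p was 4.78e-05 for *Jund*, 1.99e-04 for *Fos*, 0.00230 for *Junb*, 0.00259 for *Jun*, 0.0305 for *Fosb*, 0.0480 for *Fosl2* and 0.981 for *Fosl1*. The quasi-likelihood test of edgeR called 0 of 7, against 0.633% of genes in either direction, with an adjusted p of 0.0805 for *Fos* and 0.0986 for *Jun*. The genotypes did not overlap for 5 lower members, against 23.8% of tested genes, and 1 higher member, against 23.2%. The tools therefore differed in how many members passed, whereas the libraries of the genotypes were separate for 6 of the 7. An exact permutation test of 2 libraries against 2 cannot give a p below 0.333.

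The members *Fos*, *Fosb* and *Jun* were lower by more than 1 on the log2 scale in both pairs, against 2.84% of tested genes. The central 95% of pair differences over all tested genes ran from -1.44 to 1.06 for replicate 1 and from -1.72 to 1.56 for replicate 2, and these 3 genes lay below it in both. *Jund* lay below it in the replicate 2 pair, and *Junb*, *Fosl1* and *Fosl2* lay inside it in both. The median log2 difference of the 7 genes for replicate 1 was -0.997, that for replicate 2 was -2.34, and their median log2 fold change was -1.67, where that of all tested genes was 0.0010. Ordered by how much lower they were in *Bptf* cKO, *Fosb* stood at position 46, *Fos* at 81, *Jun* at 151 and *Jund* at 265 of 14858 genes. The members differed in how close their 2 controls lay. The controls of 93.6% of tested genes lay closer together on the log2 scale than those of *Fos*, and the figures were 96.8% for *Fosb*, 94.0% for *Fosl1*, 92.0% for *Jun*, 79.95% for *Fosl2*, 68.2% for *Jund* and 7.64% for *Junb*.

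**Figure D2:**
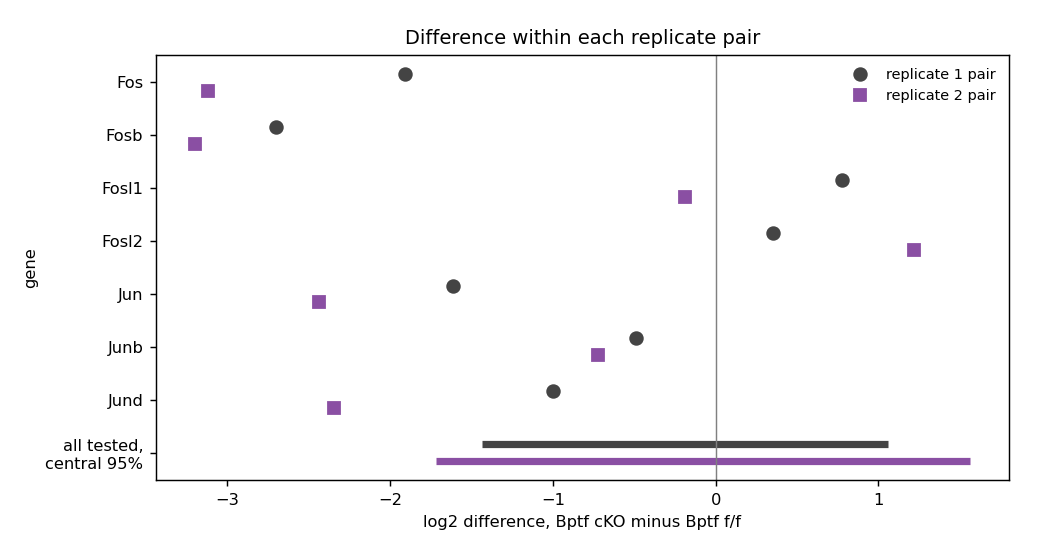
Each AP1 gene is plotted at its log2 difference, *Bptf* cKO minus Bptf f/f, within the pairs of replicate 1 (circles) and replicate 2 (squares), and the bars at the bottom span the central 95% of differences of all tested genes in each pair. *Fos*, *Fosb* and *Jun* lie to the left of the bars in both pairs, and *Fosl1* changes side between pairs.

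**Figure D3:**
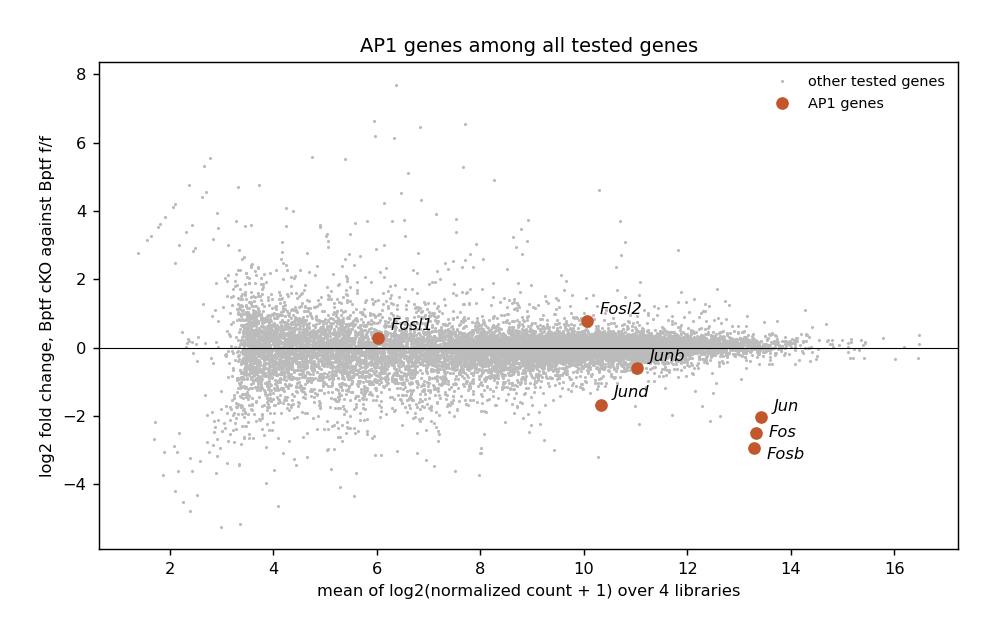
The log2 fold change between genotypes (positive where *Bptf* cKO was higher) is plotted against the mean log2(normalized count + 1) over 4 libraries, with AP1 genes as large named points and the other tested genes in grey. *Fos*, *Fosb* and *Jun* lie below -2, at log2 fold changes of -2.51, -2.95 and -2.03, to the right of the other members.

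Levels of different genes were compared as RPKM, the reads per kilobase of exon per 1000000 reads on listed genes. On this scale *Fos* was at 359 and 815 in Bptf f/f and at 94.1 and 92.1 in *Bptf* cKO. *Jun* was at 247 and 515 in Bptf f/f and at 79.2 and 93.6 in *Bptf* cKO. Ranked from the highest of 14584 genes with a length, *Fos* stood at 62 and 20 in the control libraries and at 407 and 451 in *Bptf* cKO, and *Jun* at 99 and 35 and at 524 and 432. *Fosb* was at 128 and 410 RPKM in Bptf f/f and at 19.3 and 43.8 in *Bptf* cKO. These 3 genes headed the family in each control library. *Jund* was at 62.3 and 80.7 in Bptf f/f and at 30.7 and 15.6 in *Bptf* cKO on the same scale. *Junb* was at 57.7 and 58.2 in Bptf f/f and at 40.4 and 34.6 in *Bptf* cKO. The least abundant were *Fosl2*, at 5.33 and 3.50 and at 6.69 and 8.0, and *Fosl1*, at 0.949 and 2.27 and at 1.62 and 1.95. In the controls the order by mean was *Fos*, *Jun*, *Fosb*, *Jund*, *Junb*, *Fosl2* and *Fosl1*, with the libraries of the neighbours *Fos* and *Jun*, and of *Jun* and *Fosb*, overlapping. In *Bptf* cKO *Fos* and *Jun* overlapped at the head, and below them *Fosb* overlapped both *Junb* and *Jund*, which did not overlap each other. With transcript length in place of all exon bases *Fosb* stood above *Jun* in Bptf f/f replicate 2, at 677 against 515, so the order of these 2 genes depends on the length used.

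Summed over the family, the Fos genes were at 493 and 1231 RPKM in Bptf f/f and at 122 and 146 in *Bptf* cKO. The pair differences of this sum were -2.02 and -3.08 on the log2 scale. The Jun genes summed to 367 and 654 in Bptf f/f and to 150.4 and 144 in *Bptf* cKO, with pair differences of -1.29 and -2.19. *Fos* and *Fosb* made up nearly all of the Fos family in each library, and *Jun* most of the Jun family. *Fosl2* took 1.08% and 0.284% of the Fos family sum in Bptf f/f and 5.50% and 5.48% in *Bptf* cKO. *Fosl1* took 0.193% and 0.184% in Bptf f/f and 1.33% and 1.34% in *Bptf* cKO, a larger share of a smaller sum although its own libraries overlapped. *Jun* took 67.3% and 78.8% of the Jun family in Bptf f/f and 52.7% and 65.1% in *Bptf* cKO, and *Junb* 15.7% and 8.89% against 26.9% and 24.1%. The shares of *Fos*, *Fosb* and *Jund* overlapped between genotypes, and no share was tested.

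**Figure D4:**
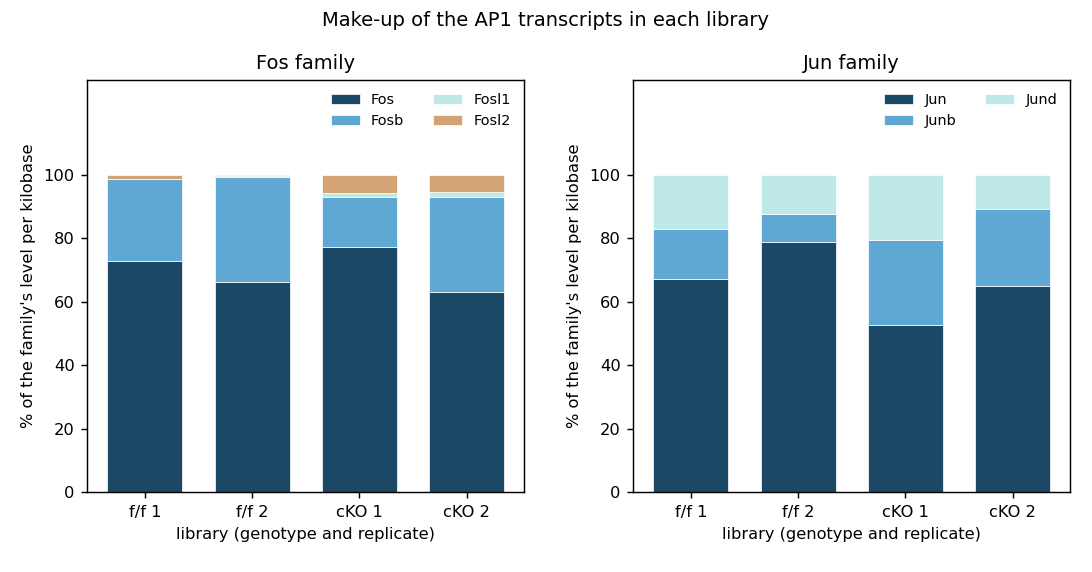
Stacked bars give each gene's percentage of the summed level per kilobase of its family in each library, Fos family on the left and Jun family on the right. *Fosl2* is a thicker band in the *Bptf* cKO libraries, at 5.50% and 5.48%, than in the Bptf f/f libraries, and *Jun* a shorter one.

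Around the AP1 genes, 60 of 66 pathway genes in 4 lists were tested, and limma called 1 lower and 1 higher. Among the dimer partners, the ATF, BATF and MAF proteins that can pair with FOS or JUN, 11 of 12 were tested and 1 was called. *Jdp2*, whose protein pairs with JUN and represses AP1 sites, was at 474 and 416 normalized counts in Bptf f/f and at 1211 and 1140 in *Bptf* cKO. It rose by 1.40 (SE 0.13) on the log2 scale, with a limma adjusted p of 0.0261. The call was lost without Bptf f/f replicate 2 (adjusted p 0.0594), without *Bptf* cKO replicate 1 (0.172) and without *Bptf* cKO replicate 2 (0.218). *Atf3*, a stress-induced partner singled out after its values were seen, was at 42.6 and 1021 in Bptf f/f and at 64.3 and 124 in *Bptf* cKO, so a single control library carried most of its reads. The median log2 fold change of the 11 was 0.093.

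The turnover and restraint list includes, among others, genes of ubiquitin ligases of JUN and of RNA-binding proteins that act on short-lived mRNAs. Limma called 1 of its 10 genes. *Zfp36*, which encodes tristetraprolin, a protein that promotes decay of short-lived mRNAs and is itself the product of an early-response gene, was at 10453 and 15449 normalized counts in Bptf f/f and at 3573 and 2853 in *Bptf* cKO. It fell by 1.99 (SE 0.22) on the log2 scale, with a limma adjusted p of 0.0368. With each library left out, the log2 fold change ran from -2.27 to -1.71, and the call did not hold in every such fit, each with a lone library in 1 genotype. The median log2 fold change of the 10 was -0.050.

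The kinases and activators carry the growth factor and stress signals to the AP1 promoters and proteins, and 23 of 23 were tested. Limma called 0 of them, and 2 passed an unadjusted p of 0.05, beside 15.7% of all tested genes in either direction. Neither DESeq2 nor edgeR called any. The genotypes did not overlap for 5 lower and 5 higher genes, a share near that of all tested genes. Their log2 fold changes ran from -0.65 (*Map2k6*) to 0.27 (*Map2k2*), with a median of 0.016. *Mapk14*, the p38 alpha kinase gene and among the most abundant of the list, had a log2 fold change of 0.016.

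Of 21 genes known as AP1 targets, 16 were tested, and limma called 0 of them. At an unadjusted p under 0.05 there were 2 lower and 3 higher, beside 15.7% of all tested genes in either direction. EdgeR called 0, and DESeq2 called 1 lower, beside 3.57% of all genes, and 3 higher, beside 2.28%. The most abundant were *Vim*, an intermediate filament gene, with -0.28 on the log2 scale (limma adjusted p 0.439), and *Cd44*, an adhesion receptor gene, at -0.32 (0.258). The list did not lie to one side, with a median of 0.13, 6 genes lower and 10 higher. A pair of its genes, chosen after their values were seen, went opposite ways. *Sphk1*, a sphingosine kinase gene, was at 188 and 137 normalized counts in Bptf f/f and at 4.55 and 15.5 in *Bptf* cKO, a log2 fold change of -4.08 with a limma adjusted p of 0.0660. *Ccnd1*, the cyclin D1 gene, was at 493 and 956 in Bptf f/f and at 1825 and 2145 in *Bptf* cKO, a log2 fold change of 1.53 with an adjusted p of 0.120.

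Other genes known to respond early to signals or to handling were set beside the members. Of 24 other immediate-early genes 21 were tested, and 19 had lower mean log2 levels in *Bptf* cKO. For 16 the genotypes did not overlap in the lower direction, and for 0 in the higher, where all tested genes gave 23.8% and 23.2%. Limma and edgeR called 0 of 21, 13 passed an unadjusted p of 0.05, all lower, beside 15.7% of all tested genes in either direction, and DESeq2 called 7 lower, beside 3.57%. Their median log2 fold change was -0.68, with pair medians of -0.62 and -1.07. *Dusp1*, a MAP kinase phosphatase gene, was at 8370 and 16528 normalized counts in Bptf f/f and at 2496 and 2768 in *Bptf* cKO (log2 fold change -2.16, limma adjusted p 0.0654). *Egr1*, a zinc-finger factor gene, was at 4588 and 18261 and at 3357 and 3915 (-1.34, adjusted p 0.392). The median of Bptf f/f replicate 2 minus replicate 1 was 0.63 on the log2 scale in this list and 1.08 in the 7 AP1 genes, and for *Bptf* cKO it was 0.15 and 0.26. The 10 heat-shock genes that respond to cell handling had a median log2 fold change of -0.11 between genotypes. Limma, DESeq2 and edgeR called 0 of them, and 0 passed an unadjusted p of 0.05. Among the controls, replicate 2 exceeded replicate 1 by a median of 0.70 in the heat-shock list, and among *Bptf* cKO libraries by 0.31. *Hspa8* and *Hsp90aa1*, the most abundant of them, were at 21179 and 34003 and at 9472 and 14598 normalized counts in Bptf f/f, and at 25714 and 32436 and at 9467 and 12394 in *Bptf* cKO. The widest differences between replicates in this list, picked after their values were seen, were those of *Hspa1a* and *Hspa1b*. *Hspa1a* was at 17.1 and 269 in Bptf f/f and at 1.30 (2 reads) and 185 in *Bptf* cKO. *Hspa1b* was at 57.4 and 599 in Bptf f/f and at 22.1 and 457 in *Bptf* cKO. The part of handling in the AP1 levels was not tested.

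**Figure D5:**
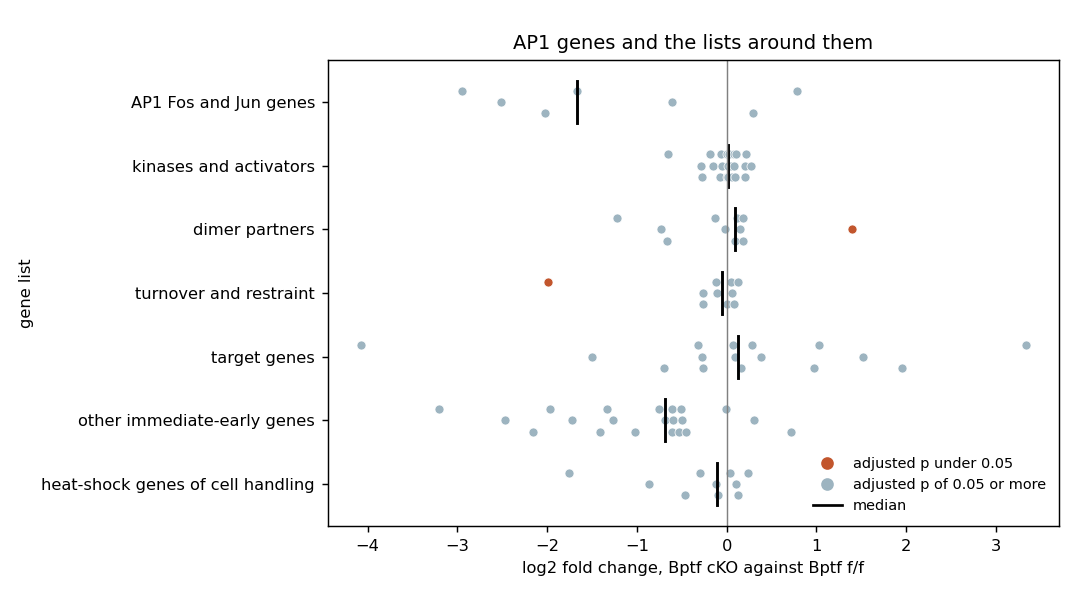
Each point is the log2 fold change of a tested gene between genotypes in the AP1 genes and in each list around them, with genes at a limma adjusted p under 0.05 in orange and black bars at the median. The medians of the AP1 genes (-1.67) and of the other immediate-early genes (-0.68) lie furthest from 0, and *Jdp2* and *Zfp36* are the orange points.

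Likeness to a member was measured as the root mean square difference over the 4 libraries between log2 values centred on each gene's mean. The candidates were 10809 genes that averaged at least 100 normalized counts, and the 7 AP1 genes were left out of them. *Dusp1* was nearest to both *Fos* (0.20) and *Jun* (0.086). The next nearest to *Fos* were *Ndn* (0.28), *Ighg2b* (0.32), *Lamb2* (0.33) and *Afdn* (0.33). *Ighg2b* is an immunoglobulin constant region gene whose reads may be shared with near-identical copies. The next nearest to *Jun* were *Myo5c* (0.15), *Fscn1* (0.16), *Afdn* (0.17) and *Gsta4* (0.20). With 4 libraries, many genes can share such a pattern, and it is given as a description.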

How the data were processed

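RNA-seq libraries of pooled LSK cells, 2 per genotype, were grouped by their sample labels. Per the labels, the authors aligned reads with HISAT2, counted them with featureCounts and normalized them with DESeq2 on GRCm38/mm10. Versions, annotation and strand setting are not given in the sources used here. The deposited values are a signal, the read count of each gene over the size factor of its library. The authors' own log2 fold change, its standard error, their ratio and the p-values, beside the mean over libraries, were not used. The listed genes had at least 11 reads over the 4 libraries. Each library's values were whole multiples of its smallest non-zero value (tolerance 0.01), from which reads were recovered for counting intervals and count tests. Intervals cover counting error only.

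Genes averaging at least 10 normalized counts were fitted with limma 3.58.1 (R 4.3.3) with a trend on log2(normalized count + 1), by genotype, two-sided, with Benjamini-Hochberg adjustment over all tested genes and a threshold of 0.05. Fold changes on this scale understate changes of low genes. Alternatives were edgeR 4.0.16 quasi-likelihood, DESeq2 1.42.0, the replicate number as a block, other pseudocounts, filters and scalings, and each library left out. Limma and edgeR, each with and without the block, and DESeq2 were tested on simulated counts. These counts had the same spread beyond counting error for every gene and no difference between replicate numbers, unlike the real libraries. The other alternatives were not simulated. Lengths and positions came from GENCODE on GRCm38, promoters from RefSeq.

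Members and lists were chosen with earlier results of these data known. Beside the members, the text names the called genes of each list or, with none called, its 2 most abundant (of which 1 is not reported here), and the 5 genes most like *Fos* and *Jun*. Others are said to be chosen after their values were seen. Check genes, genes that overlap a member and genes at the ends of a range are also named. With pools of mice as replicates, p-values measure the spread between these pools.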

Additional observations from a re-analysis of the deposited data

How the results depend on the processing

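Of 112 log2 fold changes of the 7 AP1 genes under 16 alternatives, 83 kept their direction and side of the threshold, 28 kept their direction and newly passed it, and 1 reversed, *Fosl1*, whose values with each library left out ran from -0.33 (without Bptf f/f replicate 1) to 0.92. Limma with the replicate number as a block, edgeR with that block, DESeq2 on the recovered reads and DESeq2 on all listed genes (chosen after seeing the data) each called 5 AP1 genes lower and 1 higher. A fit with a library left out has 1 library in a genotype, which is assumed to vary like the pair of the other genotype. The calls of these fits are therefore not listed, although the counts of 83, 28 and 1 include them. With the block limma called 14 of 21 other immediate-early genes and 3 of 10 heat-shock genes lower. Of all 14858 tested genes it called 1242 lower and 896 higher, and of the 60 tested pathway genes 5 lower and 5 higher. EdgeR with the block called 5 and 6 pathway genes, and its share of all genes is not given here. Both DESeq2 fits called 2 and 4, where DESeq2 on the recovered reads called 3.57% lower and 2.28% higher of the genes it gave an adjusted p. Limma called 2 pathway genes lower with a pseudocount of 10, and 0 lower and 0 higher without the trend. The cause of these differences was not tested.

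The labels do not say that a replicate number marks a shared litter or day, and with 2 pairs the block is given here only. Deviations of same-numbered libraries correlated at 0.45 over 14858 genes. The first 2 principal components explained 49.2% and 38.5% of the variance, and which libraries each component set apart was not examined. Adjusted p ranged from 1.21e-05 to 0.316 for *Fos*, 4.95e-08 to 0.374 for *Fosb*, 6.17e-06 to 0.331 for *Jun*, 0.00119 to 0.530 for *Junb*, 4.78e-05 to 0.288 for *Jund*, 0.00825 to 0.757 for *Fosl2* and 0.377 to 0.986 for *Fosl1*. The 5 AP1 genes with lower, separate genotypes stayed 5 under both other scalings. *Fosl1* had the fewest reads of the members, 48 to 99 per library, and the 95% counting intervals of its controls did not overlap.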
